A study of Bos taurus with 6 samples.

Results

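The miR-26 family was examined in liver small RNA libraries of Wye Angus steers raised on grass or on grain. Its 3 members in the deposited tables, bta-miR-26a, bta-miR-26b and bta-miR-26c, were chosen by name from 1030 mature miRNAs, and for each library the largest count over the precursors of a member was taken. The grass-fed group held 3 steers, fed mainly alfalfa, hay or pasture, and the grain-fed group held 3 steers, fed mainly corn silage, shelled corn, soybean and minerals. The authors give average ages of 21 months for grass-fed and 14 months for grain-fed steers, and no age for single animals. All 6 animals came from one closed Wye Angus herd and were sampled in the left liver lobe at market weight, with 1 library per animal. Diet and age cannot be told apart in this design.

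miRNAs are short RNAs that guide the silencing machinery to complementary sites, mostly in the 3' untranslated regions of mRNAs, and the bases near the 5' end of the miRNA, called the seed, dominate the pairing. miR-26a and miR-26b share their seed and so their predicted targets, and both are expressed in most adult tissues. Their genes lie within genes of the CTDSP group, which encode small phosphatases that act on the C-terminal domain of RNA polymerase II. In liver the family is known for effects on insulin sensitivity, glucose production and fatty acid synthesis in rodents, and it is also studied as a brake on cell proliferation. The comparison asked whether the level of each member differed between the 2 feeding regimens.

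bta-miR-26a is made from a pair of precursors and the other members from 1 each. In RefSeq's annotation of ARS-UCD2.0, a later assembly than the ARS-UCD1.2 of the files, MIR26A-1 overlaps CTDSPL, MIR26A-2 overlaps CTDSP2 and MIR26B overlaps CTDSP1. MIR26C has the same start and end as MIR26A-1. The deposited tables list the same reads under both precursors of bta-miR-26a where they fit both, so its level cannot be divided between the CTDSPL and CTDSP2 loci. The bta-mir-26a-2 entry exceeded the bta-mir-26a-1 entry by 522, 928 and 464 counts in grass-fed replicates 1, 2 and 3, or by 0.199%, 0.291% and 0.314%. In grain-fed replicates 1, 2 and 3 the excess was 92, 51 and 39 counts, or 0.121%, 0.1004% and 0.108%. The excess was thus a very small part of the counts in every library, and whether it differs between the groups was not tested. miR-26a and miR-26b are also alike beyond the seed, and whether short or mismatched reads were counted under the wrong member was not tested.

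Totals ran from 3824592 to 6133960 miRNA counts on grass and from 464875 to 892929 on grain. Every grain-fed library thus held fewer miRNA counts than every grass-fed library. The authors report nearly equal raw reads for both groups, with fewer clean reads and a lower mapped share for grain-fed steers. The gap in miRNA totals is therefore not one of raw sequencing depth, and its source was not tested. Counts were scaled by TMM, a method that sets library factors so that most miRNAs do not differ, and given as counts per 1000000 (CPM). The groups were compared by edgeR's quasi-likelihood method over the 456 miRNAs that had counts above 2 in no fewer than 2 libraries, with Benjamini-Hochberg adjustment and a threshold of FDR 0.1. With these settings 87 miRNAs passed, or 19.1% of those tested, of which 44 were lower in grass-fed liver (9.65%) and 43 higher (9.43%). Ranges of CPM did not overlap between the groups for 32.9% of the tested miRNAs. Across the tested miRNAs the median of the log2 fold changes, grass-fed against grain-fed, was 0.13 after TMM scaling and -0.29 when libraries were scaled by total counts alone.

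bta-miR-26b was lower on grass than on grain, and bta-miR-26a, the main member, did not pass the test after TMM scaling. bta-miR-26c had no count in any library. Of the 3 members 2 could therefore be tested and 1 was called. bta-miR-26a was counted several times more often than bta-miR-26b in every library of both regimens.

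bta-miR-26b, whose gene overlaps CTDSP1, had 30308, 39263 and 21993 counts in the grass-fed libraries and 15705, 11605 and 5389 in the grain-fed libraries, for replicates 1, 2 and 3 in that order. After TMM scaling these were 6381, 9253 and 5773 CPM in the grass-fed and 15298, 16432 and 9561 CPM in the grain-fed libraries. All 3 grain-fed libraries lay above all 3 grass-fed libraries, with grain-fed replicate 3 only just above grass-fed replicate 2. The means were 7136 ± 1859 CPM on grass and 13763 ± 3683 CPM on grain (SD, n = 3 each). The grain-fed mean was 1.93 times the grass-fed mean. The log2 fold change was -0.95 with a standard error of 0.25 (edgeR, FDR = 0.0234), which placed bta-miR-26b at rank 51 by p among the 456 miRNAs. With any single library left out the log2 fold change lay between -1.20 and -0.90 and the FDR in edgeR between 0.00385 and 0.0802, so the call was kept each time.

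bta-miR-26a had 262269, 319869 and 148046 counts in the grass-fed libraries and 75864, 50825 and 36100 in the grain-fed libraries, in the same order of replicates. After TMM scaling it stood at 55221, 75381 and 38858 CPM in the grass-fed and at 73896, 71964 and 64047 CPM in the grain-fed libraries. Grass-fed replicate 2 was the highest of all 6 libraries, the other grass-fed libraries were the lowest, and the groups overlapped. The means were 56487 ± 18294 CPM on grass and 69969 ± 5219 CPM on grain (SD, n = 3 each). The spread within a group was thus wider on grass, at 32.4% of the mean, than on grain, at 7.46%. The log2 fold change of -0.31 with a standard error of 0.22 (edgeR, FDR = 0.425) did not pass the threshold. Without grass-fed replicate 2, whose TMM factor of 0.692 was the smallest of the 6, it was -0.58 and passed (edgeR, FDR = 0.0605). Without any other library it stayed above the threshold.

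**Figure D1:**
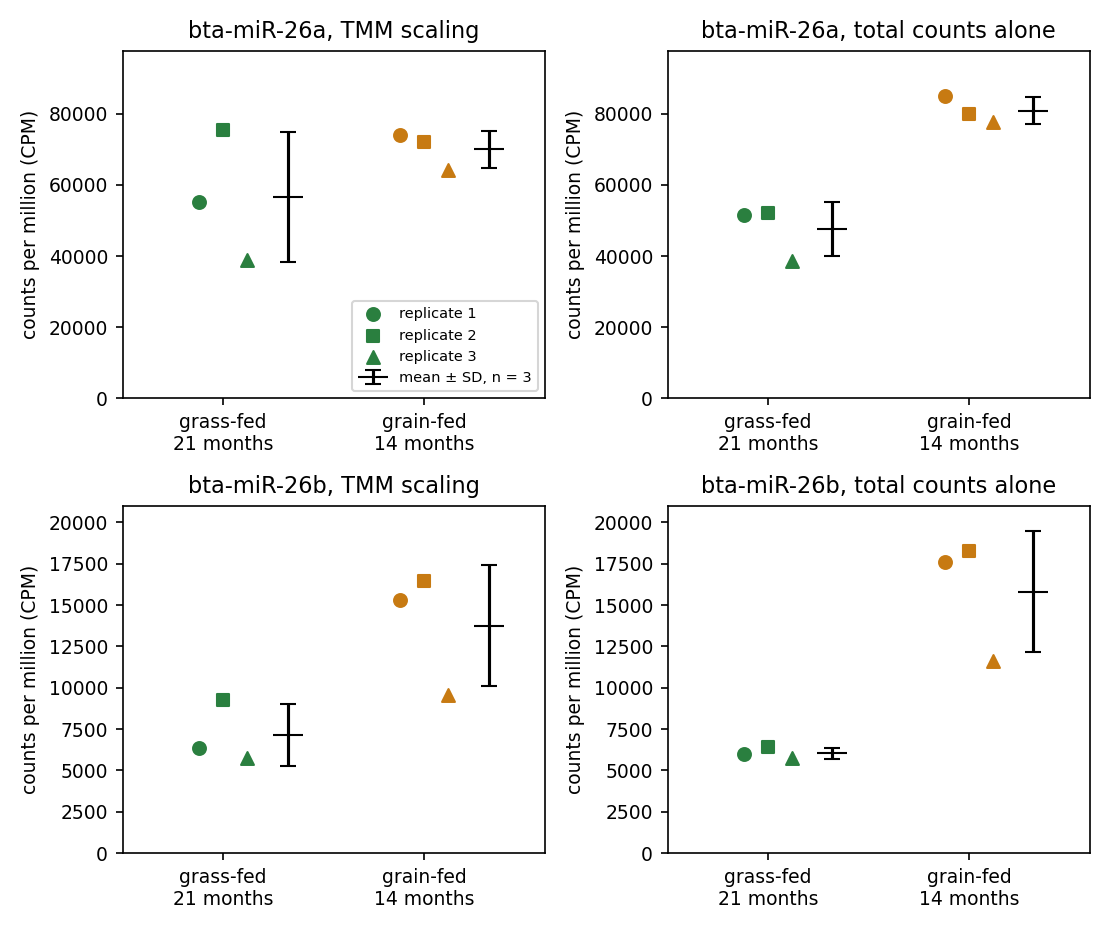
Levels of bta-miR-26a (top) and bta-miR-26b (bottom) in CPM for each library, scaled by TMM (left) or by total counts alone (right), with the mean and SD of 3 libraries per group in black. The groups overlap in the upper left panel, where grass-fed replicate 2 stands at 75381 CPM, and are separate in the other panels.

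bta-miR-26c was at 0 in all 6 libraries. A count of 0 allowed up to 0.632, 0.707 and 0.787 CPM in the grass-fed libraries and up to 2.92, 4.25 and 5.32 CPM in the grain-fed libraries, with 3 counts as the limit, which covers counting error only. The counts under the name bta-miR-26c were therefore below those of the other members by orders of magnitude at these miRNA totals. No comparison of the regimens was possible for it. MIR26C shares its annotated start and end with MIR26A-1, and whether its reads were counted under another name was not tested.

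The scaling of the libraries decided the call of bta-miR-26a and not that of bta-miR-26b. As a share of total counts, bta-miR-26a was at 51659, 52147 and 38709 CPM on grass and at 84961, 80046 and 77655 CPM on grain, and the groups were separate, as were those of 33.3% of tested miRNAs. The log2 fold change was then -0.77 with a standard error of 0.15 (edgeR, FDR = 0.00467). With total counts 16.2% of the tested miRNAs passed FDR 0.1, with 14.3% called lower and 1.97% called higher in grass-fed liver. bta-miR-26b was at 5970, 6401 and 5750 CPM in grass-fed and at 17588, 18277 and 11592 CPM in grain-fed libraries on this scale. Its grass-fed values were close together here, with an SD of 331 CPM, and the log2 fold change was -1.39 (edgeR, FDR = 3.69e-04). With upper-quartile normalization, where 27.2% of tested miRNAs passed and 9.21% were called lower, the log2 fold changes were -0.15 for bta-miR-26a (edgeR, FDR = 0.627) and -0.79 for bta-miR-26b (edgeR, FDR = 0.0462). A change of scaling shifts all miRNAs nearly alike, so values relative to the median of the tested miRNAs keep about the same size by construction. The log2 difference of bta-miR-26a from that median was -0.44 with TMM, -0.48 with total counts and -0.47 with upper-quartile normalization. For bta-miR-26b the same differences were -1.08, -1.10 and -1.11.

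**Figure D2:**
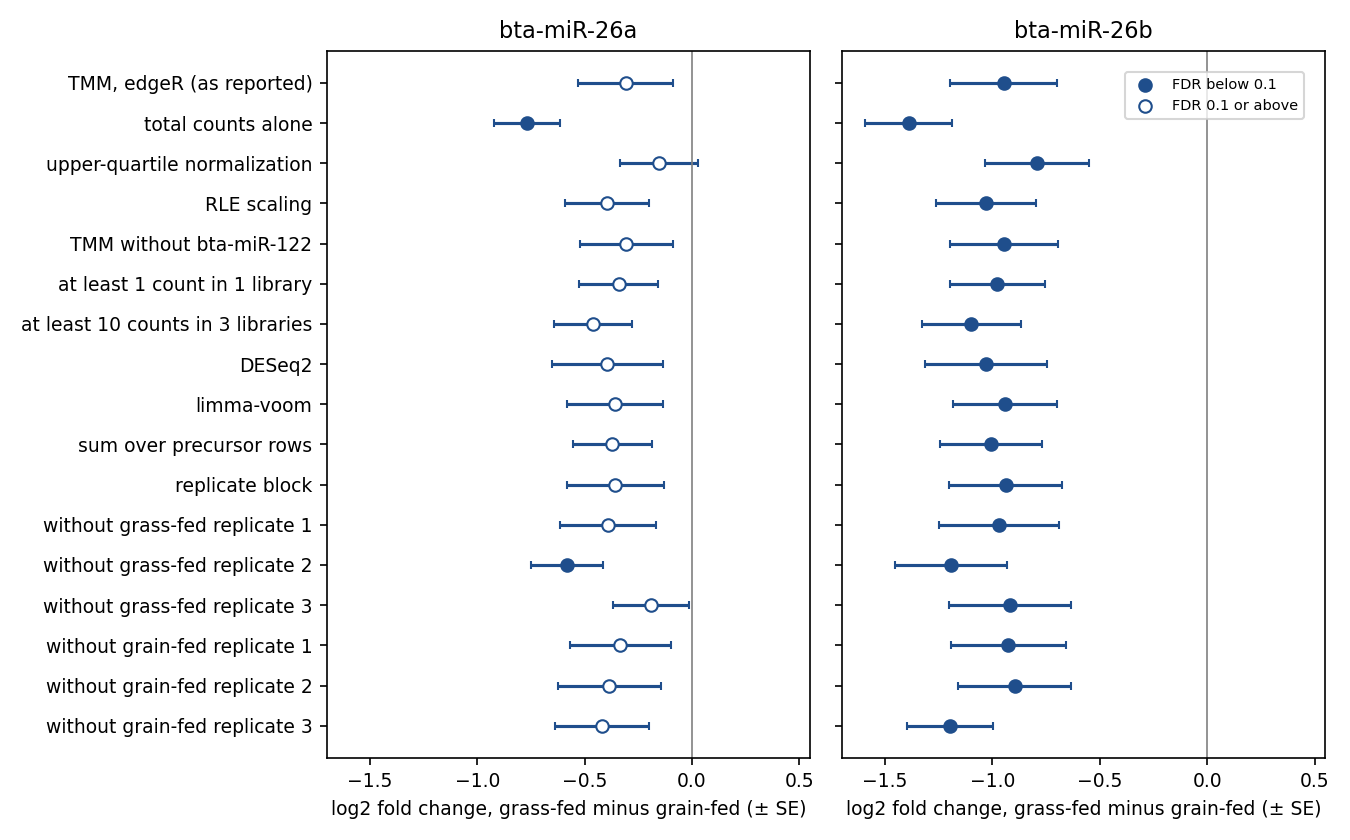
Log2 fold change of bta-miR-26a (left) and bta-miR-26b (right), grass-fed minus grain-fed, with its standard error under each way of processing the counts; filled points passed FDR 0.1. Every point lies below 0, all points of bta-miR-26b are filled, and bta-miR-26a is filled with total counts alone and without grass-fed replicate 2.

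The rank of a miRNA within its library does not depend on scaling. By count, bta-miR-26a ranked 7, 5 and 7 on grass and 4, 3 and 4 on grain. bta-miR-26b ranked 21, 20 and 22 on grass and 13, 11 and 16 on grain, again for replicates 1, 2 and 3. Each member stood higher in the order of every grain-fed library than in any grass-fed library, and the ranks of 34.2% of all tested miRNAs were separate between the groups in one direction or the other.

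The balance within the family also differed, with relatively less miR-26b in the grass-fed libraries. bta-miR-26b made up 10.4%, 10.9% and 12.9% of the counts of bta-miR-26a and bta-miR-26b together in grass-fed replicates 1, 2 and 3, with 95% Wilson intervals of 10.2 to 10.5, 10.8 to 11.04 and 12.8 to 13.1. In grain-fed replicates 1, 2 and 3 it made up 17.2%, 18.6% and 13.0%, with intervals of 16.9 to 17.4, 18.3 to 18.9 and 12.7 to 13.3. Grain-fed replicate 3 thus matched grass-fed replicate 3 within counting error, and the other grain-fed libraries were higher. The means were 11.4% ± 1.35 on grass and 16.2% ± 2.91 on grain (SD, n = 3 each). The log2 ratio of bta-miR-26b to bta-miR-26a differed by -0.58 between grass-fed and grain-fed libraries (exact two-sided permutation test, p = 0.1). This is the smallest p that 3 libraries against 3 allow, so the test cannot reach 0.05. With a library left out the difference lay between -0.76 and -0.46. A ratio within a library needs no scaling factor, so this difference is the same under every scaling.

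**Figure D3:**
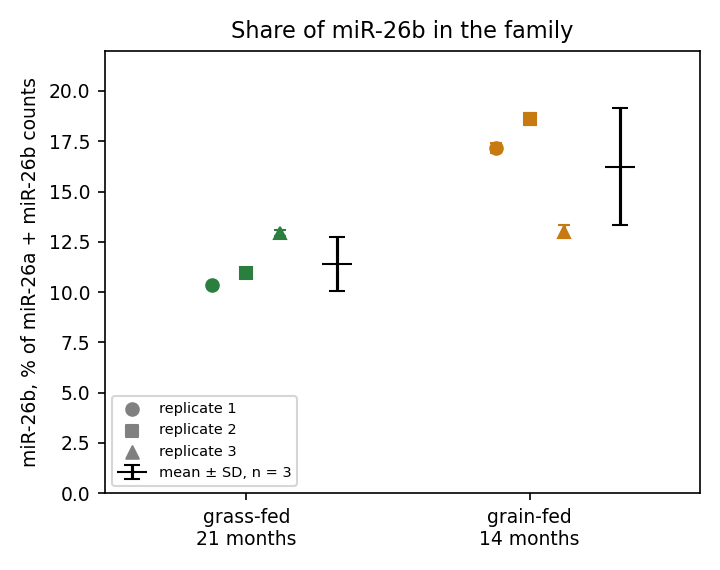
Counts of bta-miR-26b as a percentage of the counts of bta-miR-26a and bta-miR-26b together, for each library with its 95% Wilson interval, and the mean and SD of each group in black. Grass-fed libraries run from 10.4% to 12.9%, grain-fed replicates 1 and 2 lie at 17.2% and 18.6%, and grain-fed replicate 3 lies at 13.0%.

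The family was also set against other abundant liver miRNAs within each library. The comparators were the let-7 family, which restrains growth and insulin signalling, the miR-30 family, and bta-miR-122, the miRNA that marks hepatocytes. The summed miR-26 counts were 1.10, 0.918 and 0.726 times the let-7 counts on grass and 1.501, 1.67 and 1.59 times on grain, for replicates 1, 2 and 3. Against the miR-30 family the ratios were 0.739, 0.871 and 0.551 on grass and 1.25, 1.29 and 0.963 on grain in the same order. Against bta-miR-122 they were 0.220, 0.185 and 0.150 on grass and 0.555, 0.455 and 0.599 on grain. The grain-fed libraries were above the grass-fed libraries in all 3 ratios. The log2 ratios differed by -0.82 against let-7, -0.71 against miR-30 and -1.54 against bta-miR-122, grass-fed minus grain-fed. Each gave p = 0.1 in the exact two-sided permutation test, the smallest p possible, and 0.1 after Benjamini-Hochberg adjustment over the 4 ratios tested. A ratio moves with both of its terms, and the comparators were not flat. In edgeR 3 of the 10 let-7 family miRNAs and 4 of the 7 miR-30 family miRNAs passed FDR 0.1, all higher in grass-fed liver. Of all tested miRNAs 9.43% were called higher. The called members include bta-let-7a-3p and bta-miR-30b-3p, which add little to the family sums. The member with the highest mean CPM did not pass in either family. bta-let-7f had a log2 fold change of 0.49 (edgeR, FDR = 0.177) and bta-miR-30a-5p one of 0.18 (edgeR, FDR = 0.515). With total counts alone the 7 called members stayed above 0 and none of them passed, while bta-let-7b, bta-miR-98 and bta-miR-30b-5p were called lower. bta-miR-122 was higher as well, with a log2 fold change of 1.12 (edgeR, FDR = 0.00419).

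**Figure D4:**
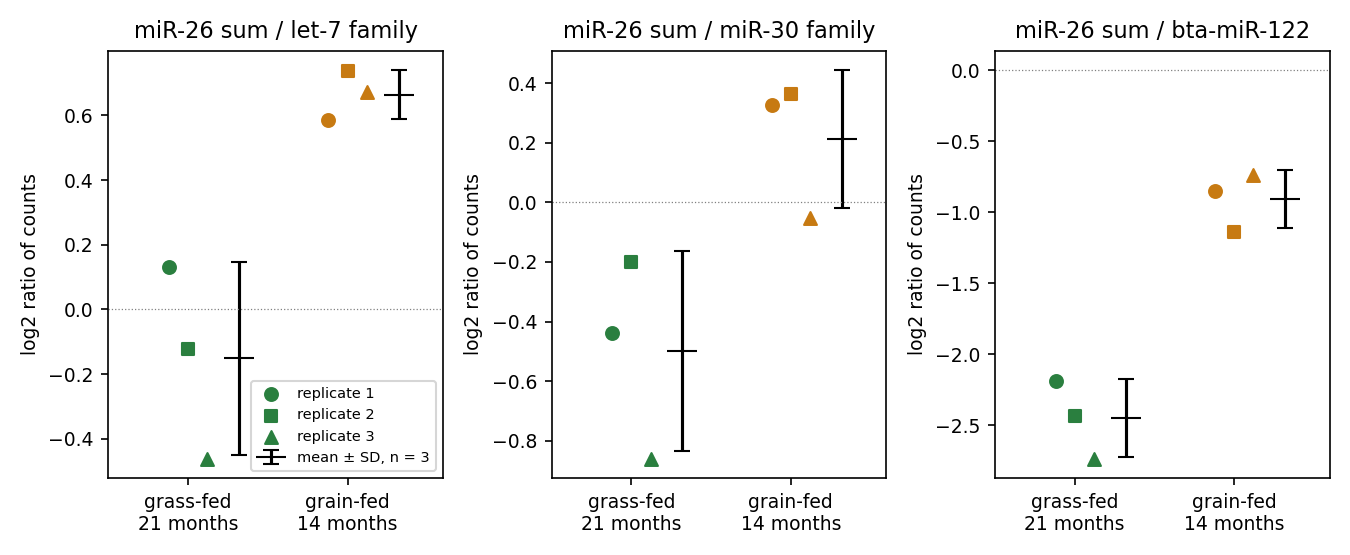
Log2 ratio of the summed miR-26 counts to the counts of the let-7 family, the miR-30 family and bta-miR-122 in each library, with the mean and SD of each group in black; the vertical scales differ between panels. In every panel the 3 grain-fed libraries lie above the 3 grass-fed libraries, with group differences of -0.82, -0.71 and -1.54, grass-fed minus grain-fed.

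Taken alone, each member showed the same order against these comparators, and bta-miR-26b the wider gap. The log2 ratio of bta-miR-26a differed by -0.73 against let-7, -0.63 against miR-30 and -1.46 against bta-miR-122. That of bta-miR-26b differed by -1.32, -1.21 and -2.04. Its wider gap is by construction the within-family difference of -0.58 given above, and adds no further result. None of these 6 ratios overlapped between the groups. Of all tested miRNAs, 29.4% had ratios to let-7 that did not overlap, 31.1% ratios to miR-30 and 49.9% ratios to bta-miR-122. They are given as a description and were not tested.

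By mean CPM over both groups bta-miR-26a was in place 4 and bta-miR-26b in place 17 of the 456 tested miRNAs. CPM counts reads and takes no account of how well each miRNA is ligated during library construction, so the order is one of reads. bta-miR-143, a miRNA of smooth muscle and stromal cells, came directly above bta-miR-26a, and bta-miR-192, a liver and gut miRNA, directly below. bta-miR-143 had 91192 ± 17288 CPM on grass and 72428 ± 7080 CPM on grain (SD, n = 3 each), and by counts it was above bta-miR-26a in 3 of 3 grass-fed and 2 of 3 grain-fed libraries, although the TMM-scaled ranges overlapped in both groups. bta-miR-192 had 72574 ± 8878 CPM on grass and 46346 ± 7081 CPM on grain (SD, n = 3 each). By counts within a library it was below bta-miR-26a in all 3 grain-fed libraries and above it in all 3 grass-fed libraries, although the TMM-scaled ranges overlapped on grass. bta-let-7a-5p came directly above bta-miR-26b and bta-miR-100 directly below. bta-let-7a-5p had 13281 ± 3771 CPM on grass and 8183 ± 1026 CPM on grain (SD, n = 3 each). It exceeded bta-miR-26b in all 3 grass-fed libraries and was below it in all 3 grain-fed libraries. bta-miR-100 had 8898 ± 499 CPM on grass and 8208 ± 310 CPM on grain (SD, n = 3 each) and did not pass the test (edgeR, FDR = 0.753). By counts it too was above bta-miR-26b in all 3 grass-fed libraries and below it in all 3 grain-fed libraries, although the TMM-scaled ranges overlapped on grass. The order of counts within a library does not change with scaling.

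Of the 44 miRNAs called lower in grass-fed liver after TMM scaling, bta-miR-26b had the highest mean CPM, at 10449. The next was bta-miR-2484 with 2543 CPM. In the 22 miRNAs with a mean of at least 5000 CPM, 5 passed FDR 0.1, and 4 of these were higher in grass-fed liver and 1, bta-miR-26b, was lower. In the 50 with a mean of at least 1000 CPM, 12 were called higher and 4 lower. Of all tested miRNAs 19.1% passed with TMM, 9.43% higher and 9.65% lower. With total counts alone the balance turned. Of the same 22 miRNAs bta-miR-122 was then called higher and bta-miR-26a and bta-miR-26b lower. Of the same 50, 3 were called higher and 10 lower, beside 1.97% higher and 14.3% lower of all tested miRNAs. These limits on the mean were chosen after the values were seen.

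**Figure D5:**
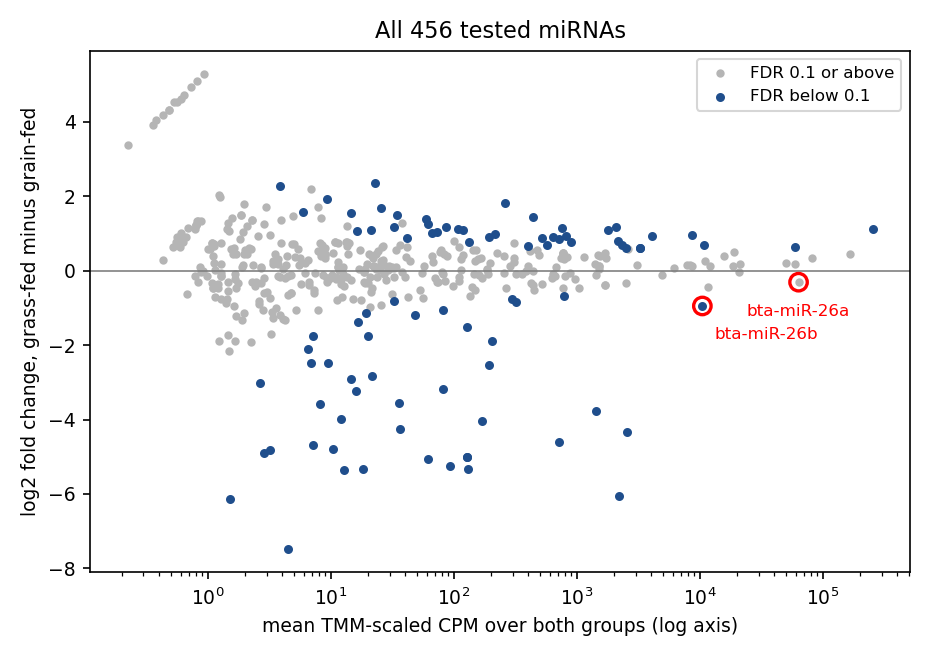
Log2 fold change, grass-fed minus grain-fed, against the mean TMM-scaled CPM on a log axis for the 456 tested miRNAs, with those that passed FDR 0.1 in blue and bta-miR-26a and bta-miR-26b circled. bta-miR-26b, at 10449 CPM and -0.95, is the blue point farthest to the right below 0; the values of the least abundant miRNAs rest on few counts and on the prior count of the fit.

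The miRNAs with the pattern nearest to that of each member were found by the root mean square difference of log2 CPM, centred on each miRNA's mean over the 6 libraries, among 131 other miRNAs with a mean of at least 100 CPM. For bta-miR-26a the nearest was bta-miR-455-5p at 0.14, followed by bta-miR-193b at 0.19, bta-miR-27a-3p at 0.23, bta-miR-3432a at 0.24 and bta-let-7b at 0.24. None of these 5 passed FDR 0.1 in edgeR and 0 had an unadjusted p below 0.05, while DESeq2 called 1, bta-miR-455-5p, lower in grass-fed liver. Their log2 fold changes lay between -0.52 and -0.01. For bta-miR-26b the nearest was also bta-miR-455-5p, at 0.24, followed by bta-miR-146b and bta-miR-451, both at 0.32. bta-miR-146b, which responds to inflammatory signals, was called lower in grass-fed liver with a log2 fold change of -0.76 (edgeR, FDR = 0.0331). bta-miR-451, a red cell miRNA, had a log2 fold change of -0.34 (edgeR, FDR = 0.442). The difference between bta-miR-26a and bta-miR-26b themselves was 0.36. bta-miR-26a thus came in place 4 for bta-miR-26b, just ahead of bta-miR-23b-3p and bta-miR-10174-3p, whose counts are identical, while bta-miR-26b came in place 29 for bta-miR-26a. These distances describe 6 libraries that differ in diet, age and miRNA total together. The nearest miRNAs were picked on the same 6 libraries. Fold changes and calls like those of the member therefore follow in part from the choice and are no separate result.

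Other miRNAs linked to hepatic glucose and lipid metabolism were taken from a list of 23. In the files 22 were listed, and 21 were tested, since bta-miR-33b had 1 count in all. Of the 21, 5 passed FDR 0.1 (23.8%, against 19.1% of all tested miRNAs), and all 5 were higher in grass-fed liver. These were bta-miR-122, bta-miR-30c, which targets the lipoprotein assembly factor MTTP, bta-miR-185, which targets the HDL receptor SCARB1, bta-miR-128, which targets the cholesterol exporter ABCA1, and bta-miR-370, which targets CPT1A. bta-miR-128 had 409 ± 153 CPM on grass and 116 ± 41.9 CPM on grain (SD, n = 3 each), which is 1.82 on the log2 scale (edgeR, FDR = 0.00290). bta-miR-370 had 38.2 ± 12.9 and 12.5 ± 4.15 CPM (SD, n = 3 each), which is 1.68 on the log2 scale (edgeR, FDR = 0.0169). On the same scale bta-miR-30c and bta-miR-185 were higher by 0.79 (edgeR, FDR = 0.0203) and 0.78 (edgeR, FDR = 0.0406). None of the 21 was called lower by edgeR, DESeq2 or limma-voom, and in edgeR 1 had an unadjusted p below 0.05 in that direction, whereas bta-miR-26b was called lower by all 3 tools. With total counts alone 5 were called as well, bta-miR-122, bta-miR-128 and bta-miR-370 higher and bta-miR-27a-3p and bta-miR-223 lower. Without grain-fed replicate 1 the number called was 2, and without grain-fed replicate 2 it was 3.

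The rest of the list did not pass after TMM scaling. The insulin-sensitivity miRNAs bta-miR-103 and bta-miR-107 had log2 fold changes of 0.57 (edgeR, FDR = 0.103) and 0.42 (edgeR, FDR = 0.212). bta-miR-29a, of a family that acts on insulin signalling and collagen, had 0.49 (edgeR, FDR = 0.130), and bta-miR-378, from an intron of PPARGC1B, had 0.36 (edgeR, FDR = 0.352). bta-miR-27a-3p had -0.34 (edgeR, FDR = 0.300) and bta-miR-34a, which targets SIRT1, had -0.25 (edgeR, FDR = 0.704). bta-miR-33a, from an intron of SREBF2, had 11 grass-fed counts and 0 grain-fed counts, too few for a fold change. The median log2 fold change of the 21 was 0.46, or 0.42 with bta-miR-33a set to the bound that its zero counts allow, beside 0.13 for all tested miRNAs. With total counts alone it was 0.00044, beside -0.29 for all tested miRNAs.

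Marker miRNAs of liver cell types were summed per library in TMM-scaled CPM, since the libraries are of whole tissue, where fewer cells of a type and less RNA per cell cannot be told apart. The 4 hepatocyte markers summed to between 516614 and 820705 CPM on grass and between 328202 and 389866 CPM on grain, and bta-miR-122 and bta-miR-192 of these passed FDR 0.1, both higher in grass-fed liver. Of the others, bta-miR-148a stood at 0.46 on the log2 scale (edgeR, FDR = 0.212), or -0.01 with total counts alone, and bta-miR-194 at -0.43 (edgeR, FDR = 0.300). The 5 stellate and mesenchymal markers ran from 79758 to 115821 CPM on grass and from 73767 to 86467 CPM on grain, with 3 called higher. For the 5 leukocyte markers the ranges were 743 to 993 and 943 to 1132 CPM, and for the 3 erythroid markers 419 to 643 and 465 to 665 CPM, grass-fed first. For the 2 endothelial markers they were 11449 to 16152 and 9476 to 14335 CPM, and no marker of these 3 lists passed in edgeR, where 3 leukocyte markers had an unadjusted p below 0.05 and were lower on grass; DESeq2 called 1 of them. The 5 biliary markers summed to 599 to 880 and 442 to 704 CPM, with bta-miR-200b called higher and bta-miR-141 lower in grass-fed liver. The 4 muscle markers, of which 3 were tested, gave 315 to 527 and 197 to 357 CPM, with 0 called by edgeR or DESeq2, 1 by limma-voom and 1 at an unadjusted p below 0.05 in edgeR. The 4 pancreas markers gave 32.3 to 36.0 and 14.2 to 136 CPM, with 3 called lower on few counts. No marker of these lists was at 0 in all libraries. The summed level separated the groups for the hepatocyte list and not for the other 7 lists. With total counts alone it separated them for the hepatocyte list, which was again higher on grass, and for the leukocyte and erythroid lists, which were lower on grass. Of single tested miRNAs, 32.9% had separate ranges after TMM scaling and 33.3% with total counts alone. After TMM scaling 19.1% of them passed FDR 0.1. The part of cell composition in the levels of the miR-26 family was not tested.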

How the data were processed

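Small RNA was size-selected from liver total RNA and sequenced, with 1 library for each of 3 grass-fed and 3 grain-fed steers. After adapter removal and filtering on quality and length, the authors mapped reads to ARS-UCD1.2 and assigned them to miRBase miRNAs with miRDeep2, for which the sources used here give no version or mismatch setting. The submitters' processing notes name FastQC 0.11.5 and Trimmomatic 0.36. The deposited values are raw counts, 1 for each mature miRNA and precursor combination. The deposited CPM, each count divided by the library total over all pairs, was not used.

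Groups and replicate numbers came from the sample labels. Counts (largest over precursors) were scaled by TMM and compared with edgeR 4.0.16 in R 4.3.3, in the newer form of its quasi-likelihood fit. Each standard error from edgeR is the size of the log2 fold change over the root of F, and DESeq2 and limma-voom gave their own. Ratios were compared with exact permutation tests in scipy 1.17.1. The alternatives were other scalings, filters and tools (DESeq2 1.42.0, limma-voom 3.58.1), FDR 0.05, other treatments of precursors, a replicate block, and leaving out single libraries. The fit was tested on simulated data. Libraries of a group were checked for a library deposited more than 1 time, and none agreed within sampling noise.

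Named miRNAs were the members, their neighbours by mean CPM, the 5 nearest in pattern, the metabolic list, the comparators and the cell type markers. bta-miR-2484 was chosen after its values were seen. A search for further miRNAs to name, those with the miR-26 seed, was also planned and was not run, as mature sequences were not used here. The members and lists were chosen with earlier results of these data known.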

Additional observations from a re-analysis of the deposited data

How the results depend on the processing

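The direction of bta-miR-26a, bta-miR-26b and the 4 ratios was kept under every alternative run. bta-miR-26b passed its threshold in all 18, with log2 fold changes from -1.39 to -0.79. bta-miR-26a did not pass in 17 of 19 and passed with total counts alone, at -0.77 (edgeR, FDR = 0.00467), and without grass-fed replicate 2, in a range from -0.58 to -0.19 with each library left out. The 5 calls in the metabolic list became 10 with upper-quartile normalization and between 2 and 6 with each library left out. Over all miRNAs 49 were called without grain-fed replicate 2 against 87 with all libraries, and with total counts 65 of 74 calls were lower in grass-fed liver. The labels do not say whether same-numbered animals were matched. Their deviations from the group means had correlations of -0.05, -0.20 and -0.01 across miRNAs. Those of differently numbered animals ran from -0.21 to 0.23, and so few values cannot show whether a pairing existed. With the replicate block 82 miRNAs were called, and the log2 fold changes were -0.36 for bta-miR-26a (edgeR, FDR = 0.347) and -0.94 for bta-miR-26b (edgeR, FDR = 0.00727). With pairing, each ratio gave p = 0.25 in the exact sign-flip permutation test, the smallest that 3 pairs allow. The miRNA totals limit what can be said of bta-miR-26c and bta-miR-33a, and miRNA total and diet cannot be told apart for any member.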
